A study of Homo sapiens with 6 samples.

Results

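The LIN28, HMGA and IGF2BP genes are oncofetal genes, which are active in embryonic cells, quiet in most adult tissues and often active again in tumours. The 10 genes described here are LIN28A, LIN28B, HMGA1, HMGA2, IGF2BP1, IGF2BP2, IGF2BP3, ARID3B, TRIM71 and DIS3L2, of 60546 gene identifiers measured. They were taken from the table by gene symbol. The set was proposed with the low level of LIN28B under one label already known, so the values of the 10 genes in this contrast are given as a description, without a test. LIN28B, IGF2BP1 and TRIM71 were close to silent in the libraries labelled GOLPH3 and plainly expressed in those labelled Vector, while IGF2BP2, IGF2BP3 and HMGA2 were expressed at overlapping levels under both labels. LIN28A, the paralog of LIN28B, was near the detection limit throughout. Its groups did not overlap, with the higher values under GOLPH3, but the gap rests on 6 against 7 reads.

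RNA was sequenced from HCT-116, an established human colon carcinoma cell line whose genotype is labelled wild type. All cells carried the viral vector PMSCV, with a GOLPH3 cDNA in 3 libraries and empty in the other 3, and each stable line was sampled at different generations. GOLPH3 is a Golgi phosphoprotein. The 3 GOLPH3 libraries have the titles P8, P12 and P13 and the 3 Vector libraries P12, P11 and P13, so that P12 and P13 occur under both labels. The labels do not say what P stands for. Nothing in the sources gives more than 1 stable line per label, so line and label cannot be told apart.

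LIN28A and LIN28B are RNA-binding proteins that hold back the maturation of the let-7 microRNAs, and let-7 in turn represses LIN28B, HMGA2, the IGF2BP genes, ARID3B and TRIM71 through sites in their 3′ UTRs. HMGA1 and HMGA2 are AT-hook proteins that bend DNA and shape chromatin. The IGF2BP proteins bind mRNAs and protect them from decay. TRIM71 is a repressor of mRNAs in stem cells, ARID3B binds AT-rich DNA, and DIS3L2 is the exonuclease that degrades let-7 precursors after LIN28A has marked them for tailing.

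The let-7 family is shown by its mature sequences because its seed, bases 2 to 8 from the 5′ end, is what the members have in common. The RefSeq microRNA table (GRCh38.p14) holds 11 mature names from 14 precursor genes with the same seed, in capitals here, of which 3 are shown.
let-7a-5p: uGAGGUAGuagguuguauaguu
let-7g-5p: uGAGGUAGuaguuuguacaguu
miR-98-5p: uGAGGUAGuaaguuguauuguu

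The match to this seed was searched on the sense strand of annotated 3′ UTRs (GENCODE 29, GRCh38) as the letters CTACCTCA, an 8-mer that also contains the 7-mer CTACCTC. Of 19145 genes, taking the longest 3′ UTR of each, 3.73% held the 8-mer and 9.7% the 7-mer. Over all annotated transcripts the 8-mer was found in 4.08% of genes and in 7 of the 10 members. TRIM71 held 4 of them, IGF2BP1 held 3 and LIN28B held 2. In the annotation 37 genes held 2 or more, 9 held 3 or more and 3 held 4 or more. These backgrounds are not matched for length. The longest 3′ UTRs of TRIM71, IGF2BP1 and LIN28B have 6015, 6206 and 4549 bases, against a median of 1103 over the genes searched. The set holds known let-7 targets, so nothing is read from the share of 7 in 10. LIN28B, IGF2BP1 and TRIM71 also differed most between the labels, but the set was chosen with that contrast known. Nothing is read from this match, and it did not hold for the 7-mer, counted with those inside an 8-mer. TRIM71 held 6, while LIN28B, IGF2BP1 and HMGA2 held 4 each, and HMGA2 overlapped between the labels. A link between sites and levels was not tested. The sites of the 3 are shown with the 8-mer in capitals after the 14 bases upstream of it. A match is a description of the letters and not a measured site.
LIN28B, chr6:105078827-105078834, plus strand: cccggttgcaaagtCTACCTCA
LIN28B, chr6:105081436-105081443, plus strand: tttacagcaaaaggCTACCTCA
IGF2BP1, chr17:49051076-49051083, plus strand: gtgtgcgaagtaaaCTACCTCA
IGF2BP1, chr17:49053713-49053720, plus strand: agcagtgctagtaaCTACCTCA
IGF2BP1, chr17:49054367-49054374, plus strand: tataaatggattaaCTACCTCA
TRIM71, chr3:32891983-32891990, plus strand: acattgcttaagtcCTACCTCA
TRIM71, chr3:32892063-32892070, plus strand: gtgataatttctatCTACCTCA
TRIM71, chr3:32895820-32895827, plus strand: cttttgctgagtttCTACCTCA
TRIM71, chr3:32895843-32895850, plus strand: ttgtggcaagtcatCTACCTCA

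LIN28A, IGF2BP2, IGF2BP3 and HMGA2 held 1 8-mer each. These are shown as well, so that every 8-mer of the members is printed. The HMGA2 8-mer lies in 1 annotated transcript that is not the one with the longest 3′ UTR, beside 3 7-mers. HMGA1 and ARID3B held a single 7-mer, and DIS3L2 held neither.
LIN28A, chr1:26427363-26427370, plus strand: cacagcctattgaaCTACCTCA
IGF2BP2, chr3:185644220-185644227, minus strand: acacacagaagaagCTACCTCA
IGF2BP3, chr7:23311795-23311802, minus strand: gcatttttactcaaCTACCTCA
HMGA2, chr12:65963313-65963320, plus strand: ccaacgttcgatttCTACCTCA

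Levels are given in normalized reads, which are reads scaled by the authors for the depth of the library, and 15708846 to 21900764 reads per library were recovered from them. Where a library shows 0 reads, the count allows up to 3, or 2.47 to 3.29 normalized reads, a limit for counting error only. Normalized reads of the GOLPH3 transcript itself were 1629.5, 1272 and 1383 under the GOLPH3 label against 1968, 1892 and 1472 under the Vector label (log2 difference -0.31, SE 0.27). The label was thus not visible as a higher level, and the groups are named by it only. Of the colon epithelial markers, CDX2, KRT18, KRT19 and CDH1 were present in every library, while CDX1 and KRT20 had at most 1 read in any. HEK293, a human embryonic kidney line with neuronal genes, was represented by 10 markers: IRS4, NEFL, NEFM, PAX2, UCHL1, VIM, CDH2, LHX1, ROBO1 and ZEB2. Of these, 8 were at or below 3 reads in each GOLPH3 library and 1 in each Vector library. The summed level of these markers was 142 to 156 normalized reads under GOLPH3 and 5833 to 15873 under Vector. In bulk RNA, fewer cells of a type and less RNA per cell cannot be told apart.

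LIN28B (ENSG00000187772, chr6:104936616-105083332, plus strand) had 5.37, 1.65 and 0 normalized reads in GOLPH3 P8, P12 and P13. In Vector P12, P11 and P13 it had 727, 641 and 639. The Vector libraries stood close together and far above every GOLPH3 library, whose values rest on 5, 2 and 0 reads against 706, 585 and 745. Group means of LIN28B were 2.34 ± 2.75 and 669 ± 49.98 normalized reads (SD, n = 3 each). The log2 difference, GOLPH3 minus Vector, was -8.03 (SE 0.62) on the log2(normalized reads + 1) scale. From the reads summed over each group and scaled for depth, the level was 294 times higher under Vector, with a 95% exact interval of 142 to 732 for counting error.

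LIN28A (ENSG00000131914, chr1:26410778-26429722, plus strand) was near the detection limit everywhere, with 6.44, 26.4 and 7.47 normalized reads under GOLPH3 and 5.15, 0 and 6.01 under Vector. The groups did not overlap, but the lowest GOLPH3 value rests on 6 reads and the highest Vector value on 7. The log2 difference was 1.78 (SE 0.86). It was 2.16 between the P12 libraries and 0.27 between the P13 libraries. Under Vector, LIN28A had 12 reads in all and LIN28B 2036. The gap between the LIN28A groups was thus too small to set its direction against that of LIN28B. Per kilobase of exon, LIN28B made up 99.2% ± 0.72 (SD, n = 3) of the summed LIN28 level under Vector, and that sum was 112 ± 8.66 normalized reads per kilobase under Vector and 3.74 ± 2.72 under GOLPH3 (SD, n = 3 each).

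**Figure D1:**
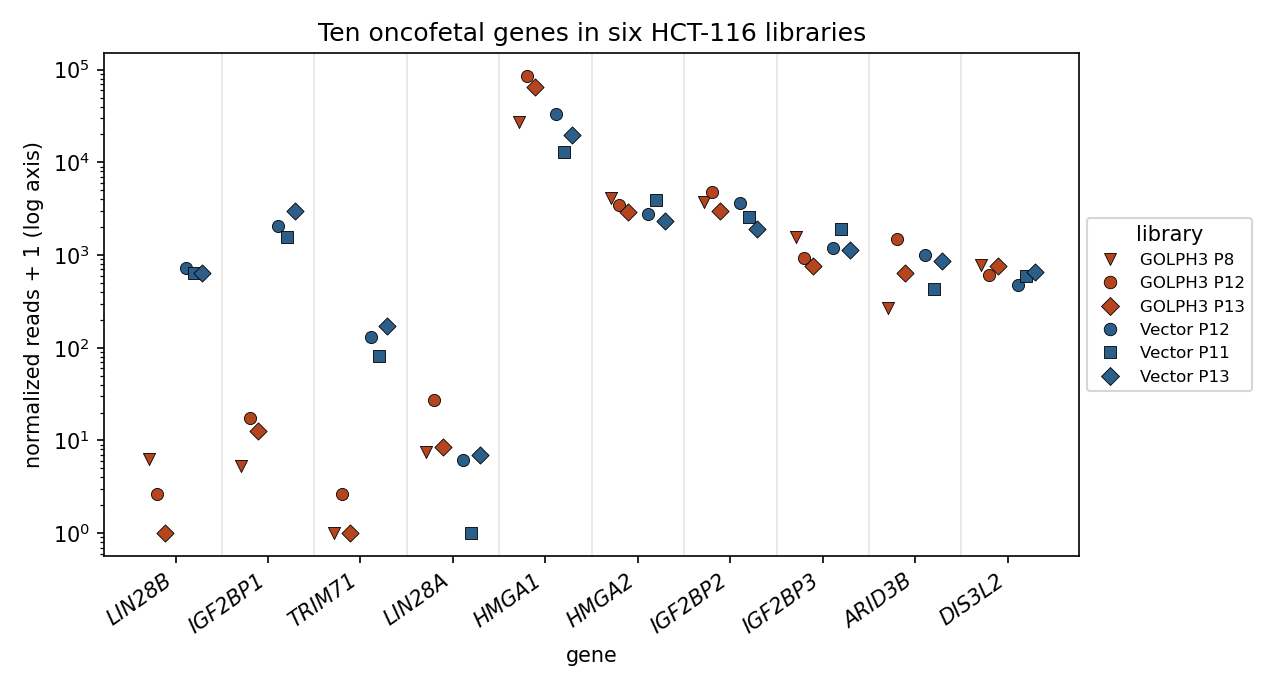
Normalized reads + 1 of each of the 10 genes in the 6 libraries, on a log10 axis, with each point a library, red for GOLPH3 and blue for Vector, and the shape giving the P number. LIN28B, IGF2BP1 and TRIM71 lie far apart between the labels, at means of 2.34 and 669 normalized reads for LIN28B, and most other genes overlap.

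IGF2BP1 (ENSG00000159217, chr17:48997412-49055650, plus strand) had 4.29, 16.5 and 11.7 normalized reads in GOLPH3 P8, P12 and P13 and 2074, 1564 and 2975 in Vector P12, P11 and P13. Every Vector library was above 1500 and every GOLPH3 library below 20. The means were 10.8 ± 6.15 and 2205 ± 714 (SD, n = 3 each), and the log2 difference was -7.66 (SE 0.47). The level from summed reads was 199.5 times higher under Vector (95% exact counting interval 143 to 287), from 35 reads against 6910.

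IGF2BP2 (ENSG00000073792, chr3:185643739-185825056, minus strand) had 3694, 4819 and 3003 normalized reads under GOLPH3 and 3606, 2591 and 1897 under Vector. The groups overlapped, with a log2 difference of 0.53 (SE 0.32). IGF2BP3 (ENSG00000136231, chr7:23310209-23470467, minus strand) had 1573, 934 and 762 normalized reads under GOLPH3 and 1177.5, 1922 and 1127 under Vector. Its groups overlapped too, and the log2 difference was -0.40 (SE 0.35). The gene's 3′ end overlaps MALSU1 on the other strand, and whether strand was used in counting is not given in the sources used here.

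The IGF2BP family as a whole had overlapping levels under both labels, with another composition. Per kilobase of exon, the 3 IGF2BP genes summed to 940.0 ± 203 normalized reads under GOLPH3 and 977 ± 137 under Vector (SD, n = 3 each). IGF2BP1 was 0.129% ± 0.0700 of that sum under GOLPH3 and 25.5% ± 10.9 under Vector, where it ran from 18.2% to 38.0%. IGF2BP2 had the largest share under both labels, with 86.1% ± 4.80 under GOLPH3 and 57.4% ± 10.5 under Vector. IGF2BP3 had 13.7% ± 4.86 and 17.2% ± 6.02, which is a gap smaller than either SD.

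**Figure D2:**
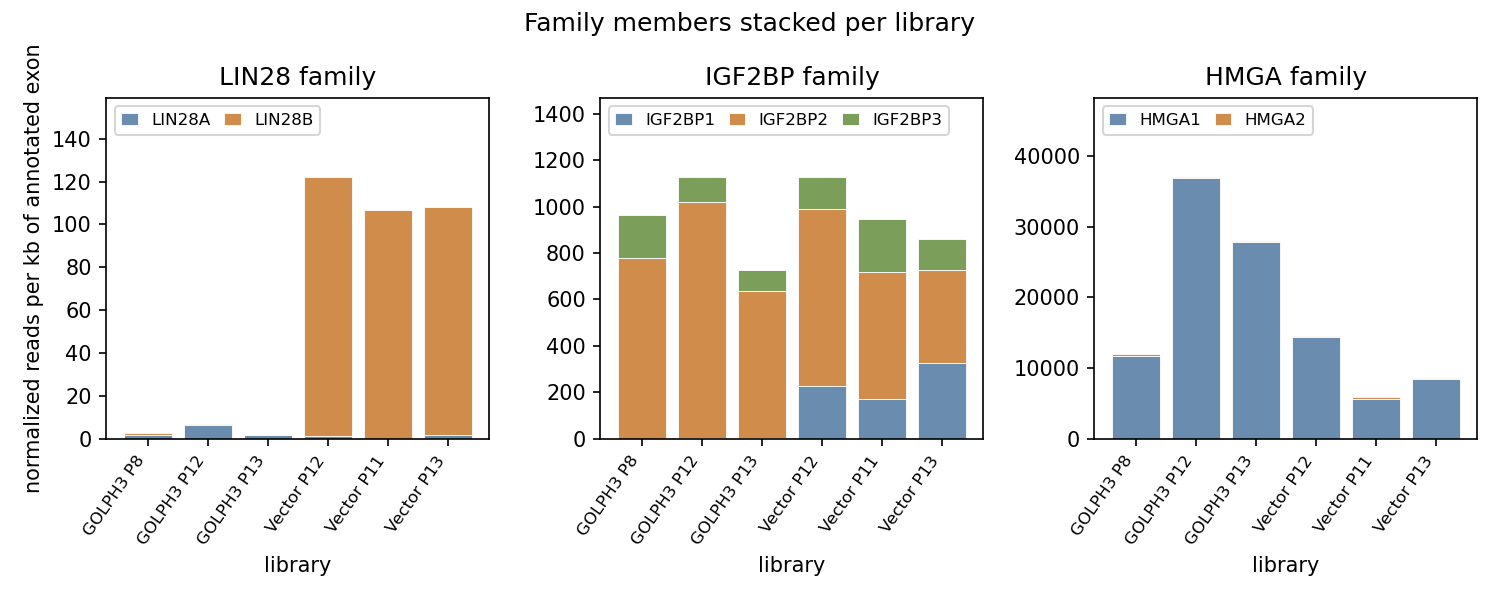
Normalized reads per kilobase of exon in each library, stacked by gene, for the LIN28, HMGA and IGF2BP families. The IGF2BP bars are of similar height under both labels, with a mean IGF2BP1 share of 25.5% under Vector and 0.129% under GOLPH3.

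TRIM71 (ENSG00000206557, chr3:32818018-32897826, plus strand) had 0, 1.65 and 0 normalized reads under GOLPH3 and 131, 81.1 and 169 under Vector. In 2 of the 3 GOLPH3 libraries no read was found, and the third held 2. The means were 0.550 ± 0.952 and 127 ± 44.1 (SD, n = 3 each), with a log2 difference of -6.47 (SE 0.62). The level from summed reads was 201 times higher under Vector, but with only 2 reads under GOLPH3 the counting interval runs from 55.3 to 1666.

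HMGA1 (ENSG00000137309, chr6:34236873-34246231, plus strand) was the most abundant of the 10 genes in every library. It had 27142, 85789 and 64693 normalized reads under GOLPH3 and 33433, 13068 and 19651 under Vector. GOLPH3 P12 and P13 lay above every Vector library, while GOLPH3 P8 lay below Vector P12. The log2 difference was 1.38 (SE 0.47), and it was 1.36 between the P12 libraries and 1.72 between the P13 libraries. HMGA1 has processed pseudogenes that can share its reads, of which HMGA1P2, HMGA1P3, HMGA1P4 and HMGA1P8 had at most 21.4 normalized reads in any library.

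HMGA2 (ENSG00000149948, chr12:65824131-65966295, plus strand) had 4109, 3434 and 2944 normalized reads under GOLPH3 and 2798, 3928.5 and 2338 under Vector. The groups overlapped, with a log2 difference of 0.23 (SE 0.29). HMGA2, a long-studied let-7 target, thus overlapped between the labels where LIN28B did not. RPSAP52, a transcribed pseudogene that overlaps the HMGA2 start on the other strand, had 304, 180 and 152 normalized reads under GOLPH3 and 44.3, 122 and 89.3 under Vector, without overlap. Its log2 difference was 1.36, with an adjusted p of 0.126 from limma with Benjamini-Hochberg adjustment; it was looked at because of its position.

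DIS3L2 (ENSG00000144535, chr2:231961245-232344350, plus strand) had 789, 613 and 755 normalized reads under GOLPH3 and 478, 587 and 659 under Vector. Within GOLPH3 it was the steadiest of the members, with a highest-to-lowest ratio of 1.29, and the groups overlapped. For DIS3L2 the log2 difference was 0.33 (SE 0.29). ARID3B (ENSG00000179361, chr15:74541177-74598131, plus strand) had 268, 1477 and 642 normalized reads under GOLPH3 and 997, 425 and 853 under Vector. The GOLPH3 libraries spanned a 5.50-fold range that holds all Vector values, and the log2 difference was -0.17 (SE 0.54) in limma and 0.08 by edgeR on the recovered reads.

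Of the 10 members, 4 had groups that did not overlap, LIN28B, IGF2BP1 and TRIM71 lower under GOLPH3 and LIN28A higher. Over the 26536 genes tested, 22% did not overlap, 12.8% lower and 9.2% higher. At an adjusted p under 0.05 (limma), 4.12% of all genes were called lower, 0.953% higher and 5.07% in either direction. Since the members were chosen by this contrast, no call is given for them and nothing is read from their count. The median log2 difference was 0.03 over the members and 0.02 over all genes tested, with 5 members below 0 and 5 above. A fall of this size was not confined to the members. In all, 192 genes, with LIN28B, IGF2BP1 and TRIM71 among them, were at least 100 times lower under GOLPH3 with 50 or more normalized reads in every Vector library.

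**Figure D3:**
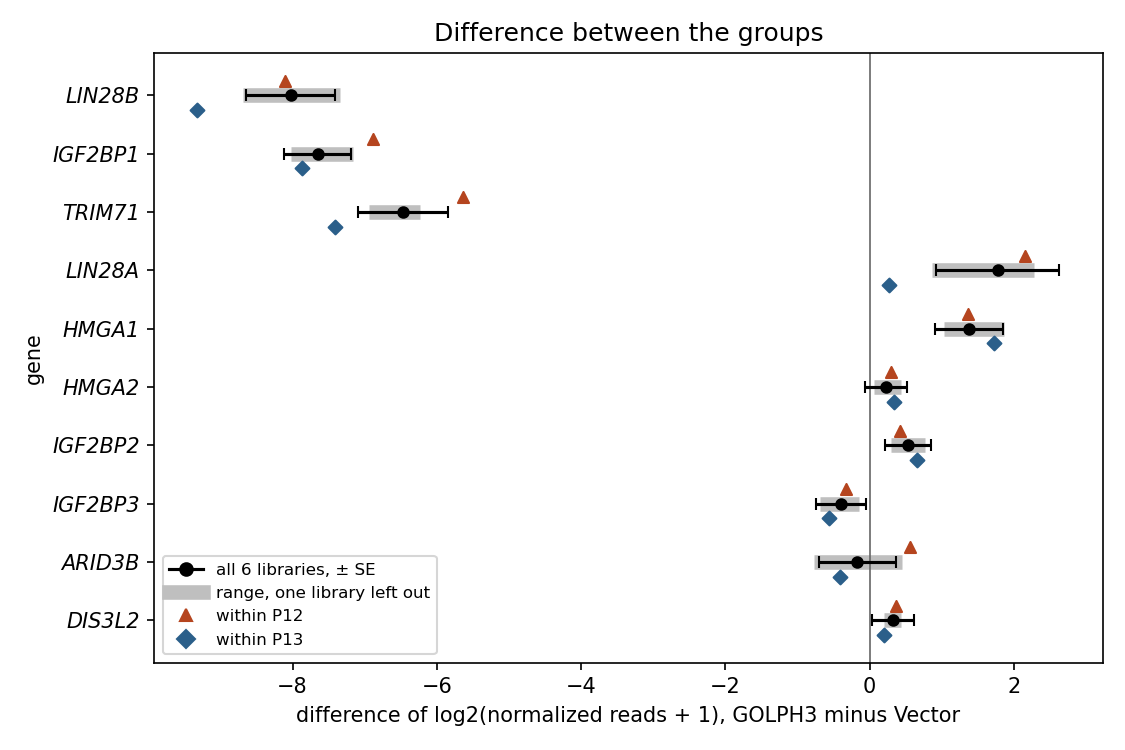
Log2 difference, GOLPH3 minus Vector, of log2(normalized reads + 1) for each of the 10 genes, with its standard error as a black bar, the range with 1 library left out in grey, and the difference within P12 (triangles) and within P13 (diamonds). LIN28B, IGF2BP1 and TRIM71 lie at -8.03, -7.66 and -6.47, and the other 7 lie between -0.40 and 1.78.

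The P12 and P13 titles give 1 comparison each between the labels. For LIN28B the log2 difference was -8.10 within P12 and -9.32 within P13, for IGF2BP1 -6.89 and -7.87, and for TRIM71 -5.64 and -7.41. All 3 were thus lower under GOLPH3 within both. IGF2BP2, IGF2BP3, HMGA2, HMGA1, LIN28A and DIS3L2 also kept 1 direction within both. ARID3B was the exception, at 0.57 within P12 and -0.41 within P13.

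Among the Vector libraries the 3 genes did not vary alike. LIN28B varied least, with a highest-to-lowest ratio of 1.14 and a coefficient of variation of 7.47%, and it was highest in Vector P12. IGF2BP1 and TRIM71 had ratios of 1.90 and 2.09, and both were lowest in Vector P11 and highest in Vector P13. The ratio of TRIM71 to IGF2BP1, 0.0630, 0.0518 and 0.0568 in Vector P12, P11 and P13, moved less than the ratio of LIN28B to IGF2BP1, 0.350, 0.410 and 0.215. Among the other members, LIN28A, HMGA1 and ARID3B were also lowest in Vector P11. HMGA2 and IGF2BP3 were highest there, and IGF2BP2 and DIS3L2 lay between. Of the 8 HEK293-like markers called lower under GOLPH3, 6 were lowest in Vector P11 and 6 were highest in Vector P13, with highest-to-lowest ratios of 1.77 to 4.80. The part of these markers in the levels of IGF2BP1, TRIM71 and LIN28B was not tested.

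**Figure D4:**
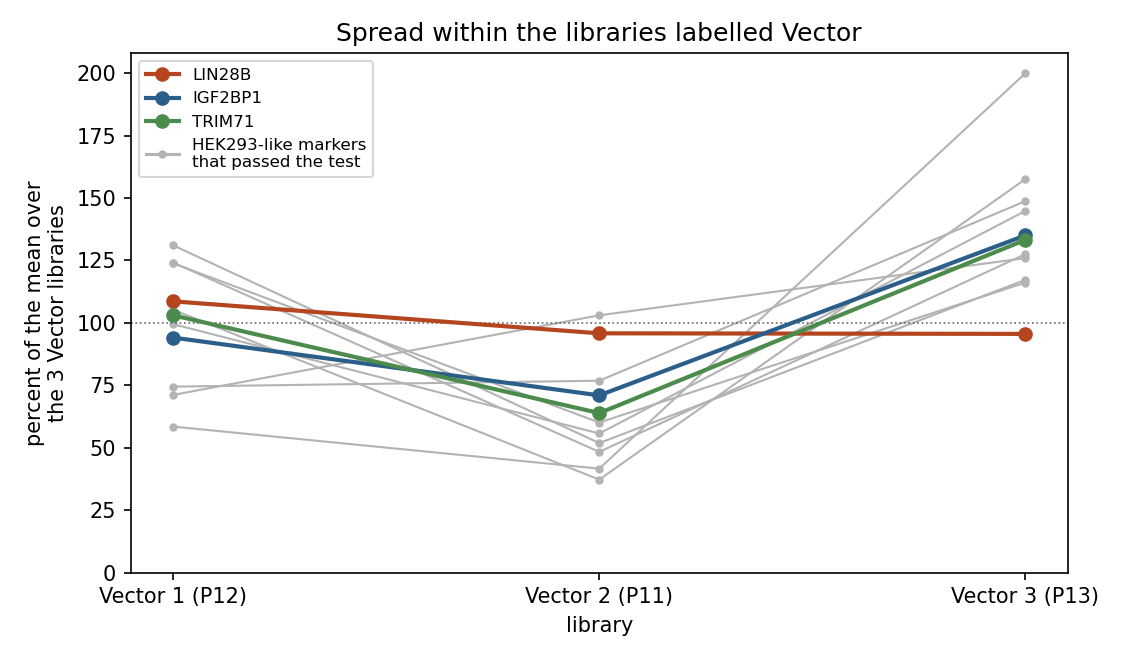
Level in each Vector library as a percent of the mean of the 3 Vector libraries, with lines joining the values of a gene, for LIN28B, IGF2BP1 and TRIM71 in colour and in grey for the HEK293-like markers called lower under GOLPH3. LIN28B stays nearly level, with a highest-to-lowest ratio of 1.14, where IGF2BP1 and TRIM71 are lowest in Vector P11.

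Among 16950 genes with a mean of at least 10 normalized reads, the 5 whose log2 profile over the 6 libraries was most like that of LIN28B were GJA1, BEND4, CDH2, SLC6A15 and ID4, at root mean square differences of 0.49, 0.55, 0.55, 0.64 and 0.65. GJA1, a gap junction protein, had 4.29, 0 and 0 normalized reads under GOLPH3 and 514, 559 and 657 under Vector. CDH2, the N-cadherin of neural and mesenchymal cells, is also 1 of the HEK293-like markers. Between members the nearest profiles were HMGA2 and DIS3L2 at 0.32, while IGF2BP1 and TRIM71 were at 0.71 and LIN28A and LIN28B the farthest apart at 5.08.

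The other genes of the pathway were taken from lists. All lists were chosen with earlier results of these data known, so nothing is read from their shares of called genes. Because P12 and P13 occur under both labels, each list was also fitted with the P number as a block. There P8 and P11 carry no information and 1 residual degree of freedom is left. The P block raised the genes called from 1346 to 6082 of the 26536 tested. Each list count with the P block is to be set against that larger share, and nothing is read from its rise alone. None of 23 tested genes for microRNA processing and tailing was called, with 1 at an unadjusted p under 0.05 in limma, 0 by edgeR and by DESeq2, and 5 with the P block. DDX17, an RNA helicase of the complex that makes microRNA precursors, had 6777, 5254 and 4436 normalized reads under GOLPH3 and 8142, 9766.5 and 12046 under Vector, without overlap. The DDX17 log2 difference was -0.87, with an adjusted p of 0.13 in limma and 6.36e-05 with the P block. AGO2, the Argonaute that cleaves targets, had 4856 to 7989.6 and 3630.1 to 5821.5 normalized reads. TUT4, which tails precursors bound by LIN28A, had 896 to 1814 and 1424 to 2205, and both genes overlapped between the labels. Of the let-7 precursor and host genes, 7 of 18 could be tested and 0 were called by limma, edgeR or DESeq2, with 0 at an unadjusted p under 0.05. The host transcript MIRLET7BHG had 89.1, 287 and 158 normalized reads under GOLPH3 and 168, 51.5 and 108 under Vector, which overlap. MIRLET7A1HG had 42.7 to 73.0 and 62.8 to 96.4, and WDR82 3372 to 3658 and 3039.5 to 3851, which overlap too. Mature let-7 was not measured in these libraries of total RNA.

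Of 35 tested genes from a list of published let-7 targets outside the members, 5 were called lower and 0 higher, 14.3% against 5.07% of all genes, and 16 had an unadjusted p under 0.05. On the recovered reads edgeR called 4 and DESeq2 called 7. The count was 3 without GOLPH3 P12, GOLPH3 P13, Vector P12 or Vector P13, 1 with a minimum of 1 in every library, and 20 with the P block, 6 of them higher. The median log2 difference of the list was -0.37. CCND2, a cyclin that drives entry into S phase, had 0, 0 and 2.14 normalized reads under GOLPH3 and 776, 348 and 687 under Vector (log2 difference -8.61, adjusted p = 4.02e-06, limma). PRTG, a cell-surface protein of the embryo, had 0 reads in every GOLPH3 library and 216, 239 and 253 normalized reads under Vector (adjusted p = 3.08e-06, limma). PLAG1, a zinc-finger transcription factor, had 20.6 to 26.8 and 210.0 to 264 normalized reads (log2 difference -3.27, adjusted p = 2e-04). MYCN and IGDCC3 were the other genes called. Both lost the call without GOLPH3 P12, GOLPH3 P13, Vector P12 or Vector P13. The adjusted p in limma then reached 0.0903 for MYCN and 0.198 for IGDCC3. MYC, a long-studied let-7 target, was not called. Its 5775 to 14861 normalized reads under GOLPH3 overlapped the 4008.5 to 7610.5 under Vector. MYC was named for that reason after its values were seen.

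Of 26 tested genes outside the members that held 2 or more let-7 8-mers, 3 were called lower and 1 higher, 15.4% against 5.07% of all genes, with a median log2 difference of -0.31. On the recovered reads edgeR and DESeq2 each called 5, 4 lower and 1 higher. The limma count of 4 fell to 2 without GOLPH3 P8 or P12 and to 1 without GOLPH3 P13, Vector P12 or Vector P13. It was 1 with a pseudocount of 0.1, 0 with a minimum of 1 in every library, and 16 with the P block. FIGN, a microtubule-severing enzyme, was lower by 7.16 on the log2 scale and kept its call without any 1 library. B3GNT7 was higher by 1.64, at an adjusted p of 0.0346 in limma. It lost the call without any 1 library other than GOLPH3 P12, at up to 0.199 without GOLPH3 P13. IGDCC3, in the target list too, and SMC1A, a cohesin subunit, were the other genes called lower. For the SMC1A log2 difference of -1.06 the adjusted p was 0.0449 in limma and 0.0658 to 0.169 with 1 library left out. Among the genes called in the target list, PRTG held 1 8-mer and IGDCC3 held 3 in the longest 3′ UTR, while CCND2, PLAG1 and MYCN held 0.

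Of 13 tested oncofetal and pluripotency genes, 4 were called lower and 0 higher, 30.8% against 5.07% of all genes, with a median log2 difference of -0.38. LEF1, a transcription factor of Wnt signalling, had 0 reads in every GOLPH3 library and 385, 140.2 and 452 normalized reads under Vector. SOX2, a stem cell transcription factor, had 2.15, 0 and 0 and 49.4, 24.1 and 115 (log2 difference -5.17, adjusted p = 0.00099, limma). GPC3, an oncofetal glypican, had 6.60 to 19.3 and 71.2 to 300.4 normalized reads (adjusted p = 0.0028). POU5F1 was called as well, at 8.58 to 9.86 normalized reads under Vector, but it has many processed copies that can take or give reads. SALL4 at 38.4 to 65.97 and 50.6 to 79.97 and IGF2 at 17.3 to 23.6 and 13.1 to 22.3 overlapped, and AFP had at most 1 read in any library.

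Of 21 tested partners of the IGF2BP proteins and m6A factors, 1 was called, ELAVL2, a neuronal RNA-binding protein (log2 difference -6.70, adjusted p = 1.7e-05, limma), and 5 with the P block. YTHDC2, a helicase that binds m6A, had 587 to 1475 normalized reads under GOLPH3 and 1551 to 2193 under Vector, and DHX9, an RNA helicase, had 5153 to 7222 and 7411 to 11462. Neither overlapped, at adjusted p values of 0.212 and 0.33 in limma.

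Of 12 HMG box and HMGN genes, 18 genes of the exosome and of 3′ decay, and 15 ARID and TRIM-NHL relatives, 0 were called by limma, edgeR or DESeq2, with 2, 1 and 1 at an unadjusted p under 0.05 in limma. With the P block 4, 5 and 4 were called. DIS3, the exosome nuclease related to DIS3L2, at 1206 to 2107 normalized reads under GOLPH3 and 2239.9 to 3567 under Vector, NHLRC3, at 109 to 191 and 226 to 293, and TRIM56, at 744 to 1340.0 and 538 to 680.4, did not overlap. HMGN5, HMG20B, XRN1, MTREX and ARID5B overlapped. The log2 differences of these genes in limma ran from -1.05 for HMGN5 to 0.79 for HMG20B, against -6.47 for TRIM71.

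Of the HEK293-like markers, 8 of 10 were called lower, 80% against 4.12% of all genes, with a median log2 difference of -8.51. The gene lists were chosen with earlier results of these data known, so nothing is read from this share. Those called were IRS4, NEFL, NEFM, UCHL1, VIM, CDH2, ROBO1 and ZEB2. PAX2 and LHX1 were not called, and 1 of the 10 markers had a log2 difference above 0. The paper used the proteins of VIM and CDH2 as mesenchymal markers. Of 12 tested colon epithelial markers, 2 were called higher, KRT19 and KRT18, 16.7% against 0.953% of all genes, with a median of 1.10. KRT19 kept its call without any 1 library. For the KRT18 log2 difference of 1.26 the adjusted p was 0.0363 in limma, and the call was lost without any 1 library other than GOLPH3 P8, at up to 0.173 without GOLPH3 P13, and with quantile normalization or a pseudocount of 0.1. The summed colon epithelial level was 62857 to 134434 normalized reads under GOLPH3 and 30051 to 41165 under Vector. The median of the 14 markers was 5.77 to 7.51 under GOLPH3 and 2.74 to 14.9 under Vector, which overlap. At most 3 reads were found for 4 to 5 of the 14 in each GOLPH3 library and 4 to 8 in each Vector library.

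**Figure D5:**
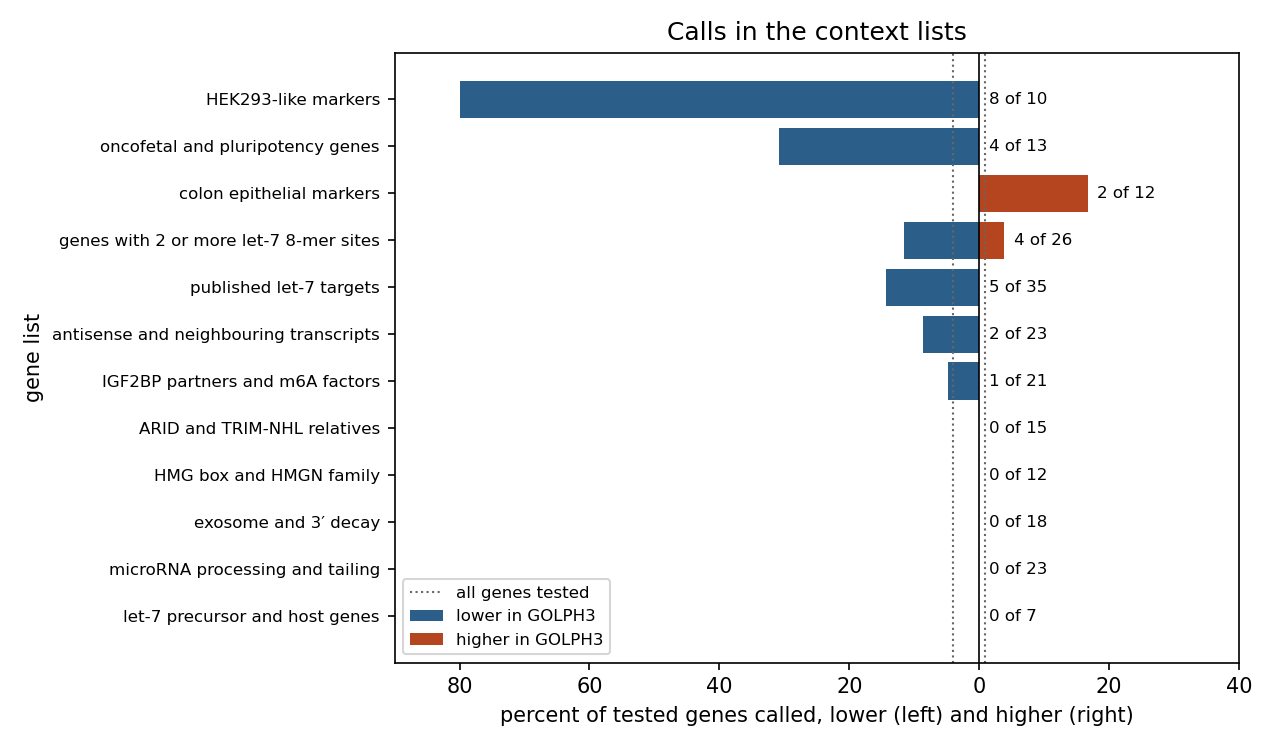
Percent of the tested genes of each list that limma called at an adjusted p under 0.05, lower under GOLPH3 to the left and higher to the right, with dotted lines at 4.12% and 0.953% for all genes tested. The bars reach 80% for the HEK293-like markers and 14.3% for the published let-7 targets, and 5 lists have no call.

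Of 23 tested neighbours and antisense transcripts of the members, 2 were called by limma, 0 by edgeR, 3 by DESeq2 and 9 with the P block, and by limma 1 without Vector P12 or P11 and 0 without GOLPH3 P12, GOLPH3 P13 or Vector P13. BVES, 13490 bases beyond the end of LIN28B, had 90.2, 64.3 and 48.0 normalized reads under GOLPH3 and 152, 208 and 203 under Vector (log2 difference -1.49, adjusted p = 0.0477 from limma). HACE1, 76697 bases on the other side, had 501, 257 and 316 and 438, 677 and 382 normalized reads, which overlap. LIN28B-AS1, which overlaps the LIN28B start on the other strand, had 0 reads in every library. Around TRIM71, CNOT10 and CCR4 had overlapping levels under both labels. GIP and B4GALNT2, which flank IGF2BP1, had at most 7.51 normalized reads in any library. WIF1 was the other gene called, at a log2 difference of -2.90. MSRB3, 332701 bases from HMGA2, had 131 to 205 and 303 to 417 normalized reads, without overlap, at an adjusted p of 0.0818 in limma.

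The promoters of LIN28B and TRIM71 are shown since these genes were near silence under GOLPH3. The RefSeq table (GRCh38.p14) gives 250 bases before and 50 after each start, and it holds DIS3L2, TRIM71, IGF2BP2, HMGA1, LIN28B and IGF2BP3. In the LIN28B promoter below the GC box GGGCGG, searched on both strands and so also as CCGCCC, is in capitals. It holds 37 CpG dinucleotides at 73% GC, and 88.7% of the 35116 promoters held fewer CpG, while GGGCGG was found in 45% of them. The TRIM71 promoter holds 27 CpG and 71.8% of promoters held fewer. Members expressed under both labels held 40 CpG for DIS3L2, 38 or 3 at the IGF2BP2 starts, 33 or 5 at the HMGA1 starts, and 17 for IGF2BP3. A high CpG count was thus not particular to the genes near silence. A second LIN28B start, chr6:104956857-104957156, has 8 CpG and 1 CACGTG, a motif present in 7.26% of promoters. DNA methylation was not measured here.
LIN28B promoter, chr6:104940715-104941014, plus strand: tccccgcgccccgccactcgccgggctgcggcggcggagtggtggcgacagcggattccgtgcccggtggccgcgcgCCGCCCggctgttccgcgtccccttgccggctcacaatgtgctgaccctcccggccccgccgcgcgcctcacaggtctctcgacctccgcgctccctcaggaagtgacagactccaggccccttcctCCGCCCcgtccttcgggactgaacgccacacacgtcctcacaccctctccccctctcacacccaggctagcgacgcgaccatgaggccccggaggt
TRIM71 promoter, chr3:32817747-32818046, plus strand: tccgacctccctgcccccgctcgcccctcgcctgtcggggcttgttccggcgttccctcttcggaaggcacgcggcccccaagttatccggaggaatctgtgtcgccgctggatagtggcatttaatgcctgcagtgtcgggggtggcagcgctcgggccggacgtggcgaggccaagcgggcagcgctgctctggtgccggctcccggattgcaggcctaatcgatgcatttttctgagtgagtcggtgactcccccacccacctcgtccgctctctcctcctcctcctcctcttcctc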

How the data were processed

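The samples were total RNA of HCT-116 cells, 3 with PMSCV-GOLPH3 and 3 with PMSCV-Vector. The submitters' processing notes name fastp 0.20.0, HISAT2 2.1.0, Cufflinks, featureCounts 1.6.1, DESeq2 and the build GRCh38, without a role or order. The annotation is not given in the sources used here. The deposited signal values had been normalized by the authors. Within a library 100% of those above 0 were whole multiples of 1 step (tolerance 0.01 read), so they are reads over a size factor, not corrected for length. Identifiers on more than 1 row were summed (44 of 60590 rows). Of the resulting 60546 identifiers, 58367 (96.4%) were in GENCODE 29, which gave coordinates and exon lengths.

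Values were compared as log2(value + 1) with limma 3.58.1 in R 4.3.3, for genes that reached 1 normalized read in 3 or more libraries, which understates the differences of low genes. The Benjamini-Hochberg adjustment of p-values ran over all genes tested. They measure only the spread between samples of stable lines. Alternatives were quantile normalization, a pseudocount of 0.1, other filters, edgeR 4.0.16 and DESeq2 1.42.0 on the recovered reads, the replicate number or the P number as a block, the P12 and P13 libraries alone, and each library left out. The fits were tested on simulated data.

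The members and all gene lists were chosen with earlier results of these data known. The genes named are the members, from each list the 3 genes of smallest p, the 5 genes most like LIN28B and the markers. Others were picked for their role or position, or because they were called, after their values were seen: MYC, MYCN, SMC1A, POU5F1, SALL4, IGF2, AFP, the HMGA1 pseudogenes, and the neighbours and antisense genes other than BVES, MSRB3 and WIF1. Some genes that this rule selects are not reported here. Protein sequences were not used here.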

Additional observations from a re-analysis of the deposited data

Results flagged for a closer look

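ARID3B moved in opposite directions in the libraries that share a P number. Its log2 difference, GOLPH3 minus Vector, was 0.566 between the P12 libraries and -0.410 between the P13 libraries. Each of these values rests on 1 library per label, and the difference between them was not tested.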

How the results depend on the processing

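Depth limits LIN28B, TRIM71 and LIN28A, since 0 to 32 reads carry their low values. The log2 difference of LIN28B was -8.03 and moved to -9.40 with a pseudocount of 0.1 and to -9.32 within P13. It ran from -8.68 to -7.35 with 1 library left out. Requiring 1 normalized read in all 6 libraries removed LIN28A, LIN28B and TRIM71. Over the members, 150 of 156 alternative values kept their sign, and the 6 that did not were those of ARID3B. The replicate numbers do not pair the samples, whose deviations correlated at -0.232, -0.151 and 0.259. By P number the P12 pair correlated at 0.256 and the P13 pair at 0.259, and P8 with P11 at 0.331, but the labels do not say what P marks. With the replicate numbers as a block LIN28B stayed at -8.03.

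For genes called GOLPH3 against Vector the count was 1346 of 26536. It was 405 with a minimum of 1 in every library, 6082 with the P number as a block, 775 at an adjusted p under 0.01, chosen after seeing the data, and 1081 with the replicate block. With 1 library left out it ran from 804 without Vector P13 to 1431 without GOLPH3 P8, and it was 825 without GOLPH3 P13, 871 without Vector P12 and 874 without GOLPH3 P12. Of the values for named list genes, 597 in all, 530 kept their side of the threshold, 49 lost the call and 18 gained it, and every one kept its direction. Over the lists, 43 counts moved by over 1.5 times and 125 did not.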
